A study of Mus musculus with 27 samples.

Results

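The metabotropic glutamate receptor genes Grm5, Grm2, Grm3, Grm4, Grm7 and Grm8 were followed across every class of nuclei in a single-nucleus RNA-seq survey of mouse hippocampus. They were taken by name, as the receptor genes of this family to be described, and are 6 of the 31053 genes in the count matrices. The survey holds 27 libraries, 1 from each of 27 mice, made with the Chromium 3′ v3 chemistry, which tags each captured RNA molecule with a unique molecular identifier (UMI). By their labels, 5 mice were Cgas+/+, 2 Cgas+/- and 2 Cgas-/- without a tau transgene, and 6 P301S Cgas+/+, 6 P301S Cgas+/- and 6 P301S Cgas-/- carried the human P301S tau transgene, which is driven by the mouse prion promoter and models tauopathy. Cgas encodes the cytosolic DNA sensor cGAS, and its deletion was present in all cells of the animal. The sample labels give no age, and both sexes are present except in the tau-free Cgas+/- and Cgas-/- groups, whose mice were all male.

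Metabotropic glutamate receptors are G protein-coupled receptors that answer glutamate more slowly than the ion channel receptors and tune the strength of synapses. Group I, here Grm5, couples to Gq and phospholipase C and sits mainly on dendrites beside the synapse, where it drives a form of long-term depression in the hippocampus. Group II (Grm2 and Grm3) and group III (Grm4, Grm7 and Grm8) couple to Gi/o proteins, lower cyclic AMP and mostly restrain glutamate or GABA release from axon terminals; Grm2 is known from the mossy fibre terminals of dentate granule neurons, Grm3 also from astrocytes, and Grm7 from the release sites of terminals that face certain interneurons.

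The libraries held 241938 barcodes, of which 204852 were kept as nuclei (5840–12572 per mouse) at a median depth of 2025.5–7538.5 UMIs per nucleus, and 5.12% of the kept barcode sequences occurred in more than 1 library. Nuclei were grouped by clustering that did not use the 6 receptor genes and were named from marker genes, hence the names ending in "-like". A pair of features of the samples touch the receptor results. The microglia-like level of Cgas RNA (listed under its older symbol Mb21d1) did not follow the labels throughout. In counts scaled to 1000000 UMIs (CPM) it was 37.9 ± 11.5 for the 6 mice labelled P301S Cgas+/+ and 51.4 ± 7.0 for the 6 labelled P301S Cgas-/- (SD). In tau-free mice it was 35.4 ± 2.41 with Cgas+/+, 19.1 ± 4.65 with Cgas+/- and 27.3 ± 8.14 with Cgas-/-. In excitatory nuclei it was far lower, with 1.61 ± 0.452 in P301S Cgas+/+, 1.28 ± 0.368 in P301S Cgas+/- and 0.985 ± 0.223 in P301S Cgas-/- mice, but 1.38 ± 0.198 in Cgas+/+ and 1.80 ± 0.381 in Cgas-/- mice. Whether these 3′ reads lie outside the deleted part was not tested, so every genotype below is a label. The tissue was labelled hippocampus, yet nuclei with markers of cerebral cortex and, mostly from 1 mouse (61.0%), of striatum were present in amounts that varied between mice. An unnamed cluster of 6977 nuclei of low depth came mostly (62.4%) from P301S Cgas+/+ replicate 3 and enters no class below.

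All 6 genes were detected, at very different depths. Over all libraries Grm7 had 2207541 UMIs and Grm5 2150069, whereas Grm3 had 545721, Grm8 455012, Grm4 31847 and Grm2 only 14026. Over all kept nuclei of a mouse this came to 1885 ± 204 CPM for Grm7 and 1839 ± 283 for Grm5 (SD, n = 27 mice), against 12.2 ± 3.37 for Grm2.

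Nuclear reads fall largely in introns, so long genes tend to gather more counts, and levels of different receptors are also given per length. This is a rough scale, because exonic and intronic reads of these 3′ libraries were not separated. On mm10 Grm7 (ENSMUSG00000056755) spans chr6:110645581-111567230 on the plus strand, with 99.4% of its length intronic, and Grm8 (ENSMUSG00000024211) spans chr6:27275119-28135178 on the minus strand, 98.8% intronic. Grm5 (ENSMUSG00000049583) lies at chr7:87584168-88134907, plus strand, 98.1% intronic, and Grm3 (ENSMUSG00000003974) at chr5:9485541-9725170, minus strand, 98.7% intronic. Grm4 (ENSMUSG00000063239) lies at chr17:27422387-27521403, minus strand, 94.0% intronic, and the short Grm2 (ENSMUSG00000023192) at chr9:106643095-106656082, minus strand, only 62.3% intronic. None of these genes overlaps another gene of the matrices on its own strand. Per 100 kb of gene, excitatory neuron-like nuclei held 409 CPM of Grm5, 261 of Grm7, 136 of Grm2, 111 of Grm3, 56.0 of Grm8 and 31.4 of Grm4. Divided by its 13 kb, the mean of Grm2 in excitatory nuclei was above those of Grm3, Grm8 and Grm4. Far less of its span is intronic than of theirs, so this order need not be that of the RNA levels. In astrocyte-like nuclei the order was another, with 645 CPM per 100 kb for Grm3, 74.7 for Grm5, 20.9 for Grm7, 8.78 for Grm2, 5.25 for Grm8 and 1.60 for Grm4.

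Neurons held most of the RNA of 5 receptors, and Grm3 was the exception. Excitatory neuron-like nuclei supplied 93.5 ± 4.32% of Grm2 UMIs (SD over 27 mice), 82.5% of Grm7, 79.1 ± 10.6% of Grm5, 79.0% of Grm8 and 74.2% of Grm4, where the same nuclei supplied 64.7% of all UMIs. Of Grm3, they supplied 35.7%, oligodendrocyte-like nuclei 33.0% and astrocyte-like nuclei 26.8%, although the last 2 classes supplied only 8.30% and 8.23% of all UMIs. Inhibitory neuron-like nuclei gave 12% of Grm4, 10.0% of Grm5, 7.37% of Grm8 and 5.46% of Grm7 against 9.12% of all UMIs.

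**Figure D1:**
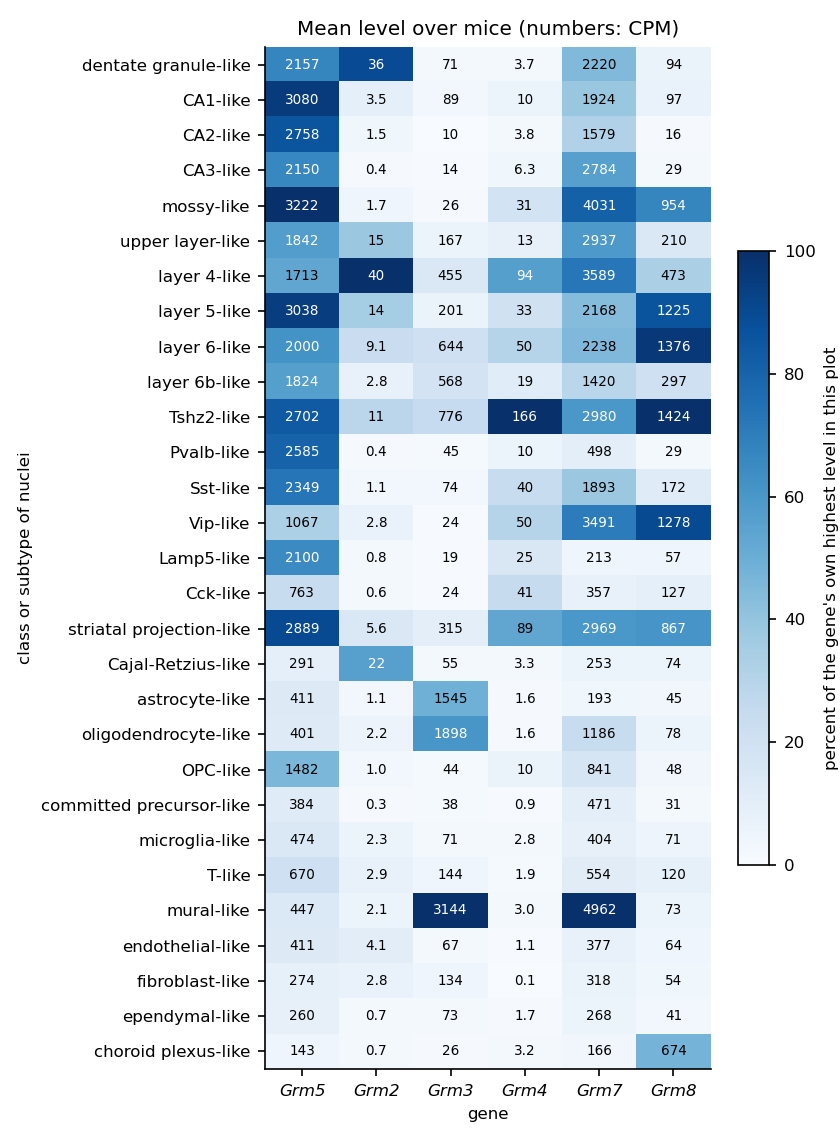
Mean level of each receptor gene (columns) in each named subtype of neurons and each other named class of nuclei (rows), in CPM as printed in the cells, over the mice with at least 10 such nuclei; colour gives the level as a percent of the gene's own highest level in the plot. Grm5 is high in most neurons and in oligodendrocyte progenitor-like nuclei, Grm3 in mural, oligodendrocyte and astrocyte-like nuclei, Grm2 and Grm4 in a few neuronal subtypes, and Grm8 in a few neuronal subtypes and in choroid plexus-like nuclei.

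**Figure D2:**
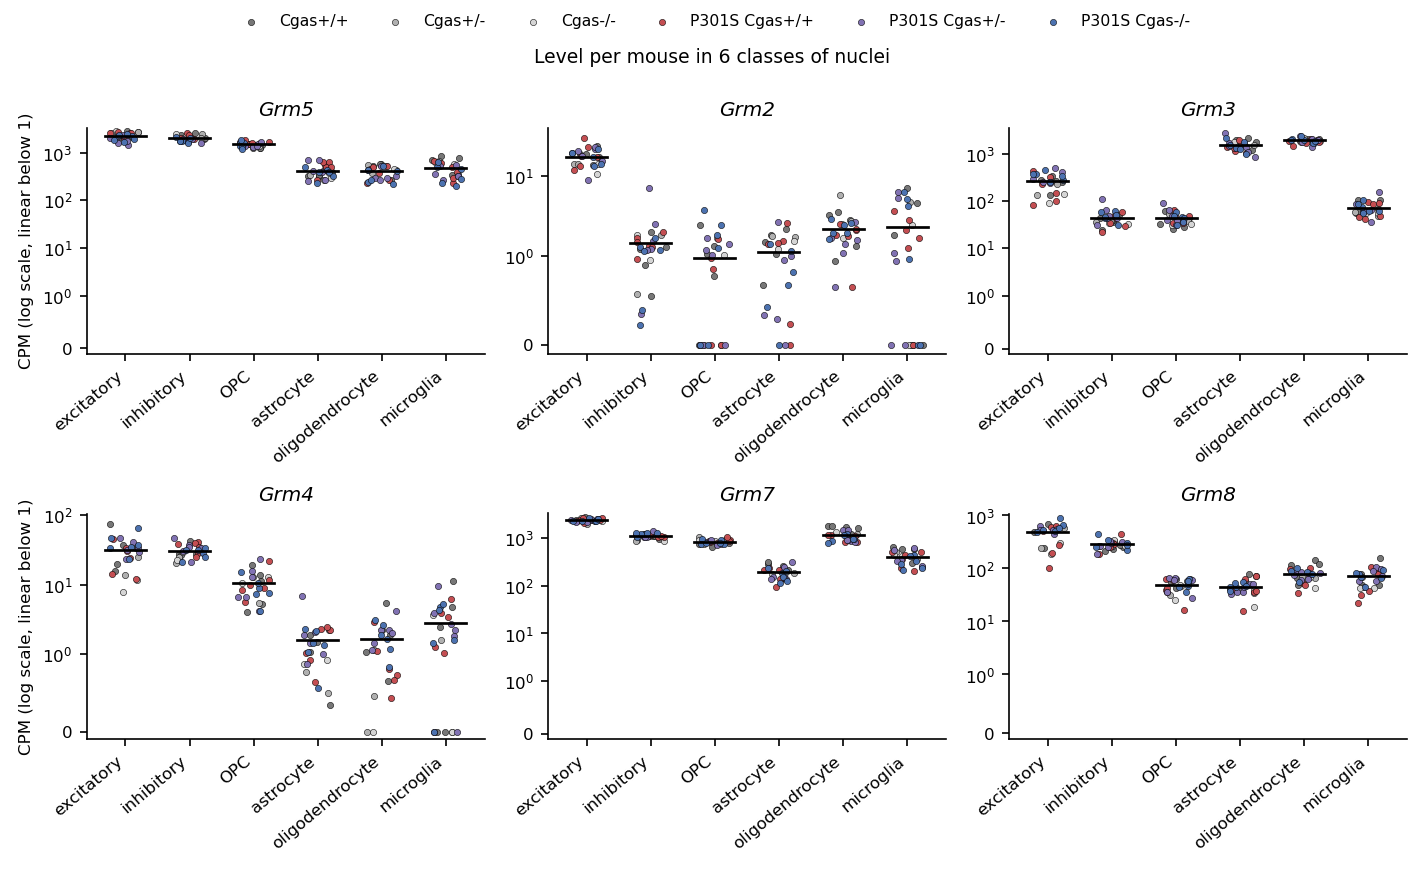
Level of each receptor gene (CPM, log axis that is linear below 1) in 6 classes of nuclei, 1 point per mouse coloured by labelled genotype; bars are means over 27 mice and OPC stands for oligodendrocyte progenitor. The excitatory points of Grm2 lie above its inhibitory points in every mouse, and for Grm3 the astrocyte and oligodendrocyte points lie above all others.

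RNA released from broken cells is taken up with every nucleus, so a level in a non-neuronal class was read against this background. The 3 genes used as excitatory markers here stood, as a percent of their excitatory level, at 6.63–12.8% in astrocyte-like nuclei, 6.26–12.9% in oligodendrocyte progenitor-like nuclei, 11.2–22.2% in oligodendrocyte-like nuclei and 14.3–28.5% in microglia-like nuclei. Read this way, Grm5 at 21.0% and Grm7 at 16.8% of their excitatory levels in microglia were not above the background, nor were Grm8 at 14.7% and Grm2 at 13.2%. Grm2 in astrocyte-like nuclei (6.45%, from 110 UMIs in all mice together) and in oligodendrocyte-like nuclei (12.3%, 189 UMIs) was not above it either.

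Grm5, the group I receptor, was the most evenly spread of the 6 among neurons. Its level was 2254 ± 383 CPM in excitatory (SD, n = 27) and 2002 ± 281 in inhibitory neuron-like nuclei, higher in excitatory nuclei in 25 of 27 mice but by a mean of only 1.13-fold. The highest subtype means were 3222 ± 329 in hilar mossy cell-like nuclei (n = 5 mice with enough nuclei), 3080.0 ± 323 in CA1-like nuclei (n = 27), 3038 ± 1190.5 in cortical layer 5-like nuclei and 2889 ± 925 in striatal projection neuron-like nuclei (n = 16). These neighbours did not differ beyond their spread over mice, nor did any of the first 15 neighbours in the order of levels. In the 5 mice with both, mossy cell-like nuclei were above CA1-like nuclei in 3, with a mean difference of -128 CPM. The mossy cell name is weak: 3 of its 5 markers stood over 2-fold above the other nuclei, and Nmb and Ociad2 did not. Dentate granule-like nuclei, at 2157 ± 128, and CA3-like nuclei, at 2149.7 ± 316 (n = 22), lay in the middle.

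Among interneurons Grm5 divided the subtypes. Pvalb-like nuclei, the fast-spiking basket type, had 2585 ± 516 CPM, Sst-like nuclei, which target dendrites, 2349 ± 629, and Lamp5-like nuclei 2099.8 ± 205. Vip-like nuclei, which mostly inhibit other interneurons, had 1067 ± 110.2 and Cck-like nuclei 763 ± 188 (n = 26). Vip-like nuclei lay above Cck-like nuclei in 23 of 26 mice and below oligodendrocyte progenitor-like nuclei in 27 of 27.

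Outside neurons Grm5 was high in oligodendrocyte progenitor-like nuclei, the dividing precursors of myelinating cells, at 1482 ± 176 CPM. This was 65.8% of the excitatory level, beyond the 6.26–12.9% of the excitatory markers there, and 3.60-fold the level in astrocyte-like nuclei (411 ± 136), above it in 27 of 27 mice. A Grm5 UMI was found in 94.7% of progenitor-like nuclei against 59.7% of astrocyte-like nuclei, and, with every nucleus thinned to 1000 UMIs, in 70.5% against 28.5%. In astrocytes Grm5 stood at 18.3% of its excitatory level, above the 6.63–12.8% of the 3 markers, and in oligodendrocyte-like nuclei, at 17.8%, within the background.

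Grm2, a group II receptor found on axon terminals, was counted mainly in a few neuronal subtypes. Cortical layer 4-like nuclei had 39.7 ± 12.9 CPM (n = 27, 2406 UMIs) and dentate granule-like nuclei 35.5 ± 10.7 (5460 UMIs), and the first was higher in 16 of 27 mice, so their order is not fixed. Cajal-Retzius-like nuclei, early-born neurons of the surface layers, followed at 22.3 ± 14.1, as a mean over the 19 mice with at least 10 such nuclei, from only 33 UMIs over all mice. The other hippocampal principal neurons were low: CA1-like nuclei had 3.49 CPM and CA3-like nuclei 0.413 ± 0.539 (n = 22, 27 UMIs). Inhibitory neuron-like nuclei had 1.48 CPM, 11.9-fold below excitatory nuclei and lower in 27 of 27 mice. With nuclei thinned to 1000 UMIs, a Grm2 UMI was seen in 3.88% of layer 4-like, 3.47% of dentate granule-like and 0.0436% of CA3-like nuclei, against 27.5%, 23.9% and 0.515% unthinned.

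Grm3, the other group II receptor, was the glial and vascular member. Mural cell-like nuclei, the pericytes and smooth muscle of vessels, had 3144 ± 465 CPM (n = 24), oligodendrocyte-like nuclei 1898 ± 231 and astrocyte-like nuclei 1545 ± 416 (n = 27 each). Mural nuclei were above oligodendrocytes in 24 of 24 mice, and oligodendrocytes above astrocytes in 23 of 27. By ratio of means, oligodendrocytes held 7.15-fold and astrocytes 5.82-fold the excitatory level of 265 ± 113. Both were above it in each of the 27 mice. In oligodendrocyte progenitor-like nuclei Grm3 was only 44.2 ± 14.2 CPM, 34.9-fold below astrocytes, and in the committed precursors between them and oligodendrocytes 38.4 ± 27.8 (n = 16). From progenitors to oligodendrocytes the Grm5 level went from 1482 ± 176 to 401 ± 118 CPM, whereas that of Grm3 went from 44.2 ± 14.2 to 1898 ± 231.

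Within neurons Grm3 was highest in cortical types and low in the hippocampal ones. Cortical Tshz2-like nuclei, named for their marker, had 776 ± 122 CPM (n = 25; 449.8 at Leiden resolution 2), layer 6-like nuclei 644 ± 104, layer 6b-like nuclei 568 ± 108 (n = 23) and layer 4-like nuclei 455 ± 128. CA1-like nuclei had 89.3, dentate granule-like nuclei 71.4, CA3-like nuclei 14.1 and CA2-like nuclei 10.3, and inhibitory nuclei 44.7 ± 16.7. The thinned share of nuclei with a Grm3 UMI was 88.5% in mural, 78.7% in oligodendrocyte, 67.7% in astrocyte and 44.6% in layer 6-like nuclei.

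Grm4, a group III receptor best known from cerebellar granule cell terminals, had the lowest mean per length in excitatory and in astrocyte-like nuclei. Its named peak was in cortical Tshz2-like nuclei, at 166 ± 64.8 CPM (n = 25), above layer 4-like nuclei (93.7 ± 39.9) in 25 of 25 mice. This peak depends on where the clusters were drawn: at Leiden resolution 2 the nuclei of that name had 57.6 CPM and layer 4-like nuclei 80.3. Striatal projection neuron-like nuclei had 88.6 ± 38.0 (n = 16). Among interneurons Vip-like nuclei had 49.8 ± 17.3, Cck-like nuclei 40.6, Sst-like nuclei 39.5, Lamp5-like nuclei 24.8 and Pvalb-like nuclei 10.1. CA1-like nuclei (10.2) and dentate granule-like nuclei (3.69) were low, and the glial classes were near 0, with 1.58 CPM in astrocytes (146 UMIs). Oligodendrocyte progenitor-like nuclei had 10.5 ± 5.17.

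Grm7, the low-affinity group III receptor, had a broad neuronal level but a steep contrast among interneurons. Excitatory nuclei had 2404 ± 195 CPM. Their subtypes ran from 4031 in mossy cell-like nuclei (n = 5), 3589 ± 605 in layer 4-like, 2937 ± 332 in upper layer-like and 2784 ± 348 in CA3-like nuclei (n = 22), through 2220.4 ± 166 in dentate granule-like and 1924 ± 272 in CA1-like nuclei, to 1579 in CA2-like (n = 13) and 1419.5 in layer 6b-like nuclei (n = 23). Vip-like nuclei had 3491 ± 573, not told apart from layer 4, which was the higher in 13 of 27 mice, and Sst-like nuclei 1893 ± 145. Pvalb-like nuclei had 498 ± 90.3, Cck-like nuclei 357 ± 105 (n = 26) and Lamp5-like nuclei 213 ± 62.9. A Grm7 UMI was seen in 92.2% of thinned Vip-like but 17.8% of thinned Lamp5-like nuclei.

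The highest Grm7 mean of any class was outside neurons, at 4962 ± 772 CPM in mural cell-like nuclei (n = 24), or 206% of the excitatory level, where excitatory markers stood at 13.7–25.4%. With thinning, 95.6% of mural nuclei held a Grm7 UMI. Oligodendrocyte-like nuclei had 1186 ± 306 (49.3% of excitatory) and progenitor-like nuclei 841 ± 96.2 (35%), both beyond the background there. Astrocyte-like nuclei, at 193 ± 59.7 (8.01%), were within it. Mural cell-like nuclei therefore led the named classes for both Grm3 and Grm7.

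Grm8, the third group III receptor, was highest in 3 cortical types and in Vip interneurons. Cortical Tshz2-like nuclei had 1424 ± 199 CPM (n = 25), layer 6-like nuclei 1376 ± 197, Vip-like nuclei 1278 ± 232 and layer 5-like nuclei 1225 ± 205. Neighbours in this order did not differ beyond their spread. Striatal projection neuron-like nuclei had 867, layer 4-like nuclei 473 and the deep layer 6b-like nuclei only 297. Mossy cell-like nuclei had 954 in the 5 mice with enough nuclei, each below its layer 5 value. The rest of the hippocampus was low, with 97.4 in CA1-like, 94.4 in dentate granule-like, 28.9 in CA3-like and 16.3 in CA2-like nuclei. Among interneurons Pvalb-like nuclei had 29.4 ± 12.8 and Lamp5-like nuclei 56.8. Choroid plexus-like nuclei had 674 ± 180.3 (n = 14), or 140% of the excitatory level where excitatory markers stood at 4.24–9.69%, while astrocytes (9.37%), progenitors (10.1%) and oligodendrocytes (16.1%) were within background.

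The means of all 3 group III receptors were thus higher in Vip-like than in Pvalb-like and Lamp5-like nuclei. Across 29 classes and subtypes, the mean log2(CPM + 1) of Grm4 correlated with that of Grm8 at r = 0.71, that of Grm5 with Grm4 at 0.73 and with Grm7 at 0.68, and Grm5 with Grm3 at -0.07, the lowest of the pairs. These points share libraries and classes and are given as a description. Among 12245 genes, the closest patterns to Grm5 were those of Rbfox1 (r = 0.96), Lrrc7 (0.94) and Dlg2 (0.93), and to Grm4 those of Gm9866 (0.91), Cacna1g (0.90) and Bean1 (0.90). Grm7 was closest to Lingo1 (0.81), Stum (0.79) and Lrrc7 (0.77), and Grm8 to Vwc2l (0.78), itself a marker used in naming, Mest (0.75) and Ltk (0.71). Grm2 was closest to Mei1 (0.79), Glt8d2 (0.75) and Kcnk9 (0.73), and Grm3 to Gipr (0.72), Pacsin3 (0.66) and Hnrnpu (0.66).

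The genotype comparisons asked whether receptor levels differed with tau (P301S Cgas+/+ against Cgas+/+) and, among tau mice, with loss of both copies or 1 copy of Cgas (P301S Cgas-/- and P301S Cgas+/- against P301S Cgas+/+). All 3 use the same 6 P301S Cgas+/+ mice. Counts were summed per mouse and class and tested over all genes in 16 classes and subtypes in which each of the 23 mice had at least 10 nuclei. All 6 genes passed the filter on low counts in at least 8 of them, which gave 85 receptor tests per comparison. None passed an adjusted p of 0.05 by edgeR's quasi-likelihood test in any comparison, against 0.00970% of all gene tests with tau, 0.00171% with loss of both copies and 0.00456% with loss of 1 copy. At an unadjusted p under 0.05 there were 6 receptor tests (7.06%) with tau, 7 (8.24%) with loss of both copies and 8 (9.41%) with loss of 1 copy, where all gene tests gave 4.51%, 5.45% and 5.73%. DESeq2, run with no filter on low counts before the fit, called none of 96 receptor tests either, against 0.115%, 0.0412% and 0.102% of all gene tests. Its default filter on low mean counts still acted when p-values were adjusted. DESeq2 gave 8, 10 and 11 receptor tests at an unadjusted p under 0.05, where 2.71%, 3.11% and 3.31% of all gene tests, many of them on scarce genes, had one. Counts were also simulated for the excitatory, inhibitory, astrocyte and microglia classes with loss of both copies. There, changes of 1 on the log2 scale were recovered in 60–80.3% of genes and changes of 0.5 in 13.2–27.9%, so smaller differences would mostly have gone uncalled. Each simulated class held 65–68 changed genes of each size, drawn from the kind of model that edgeR fits. The real counts gave 0 calls in these classes, so a change of a receptor alone may be recovered less often.

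**Figure D3:**
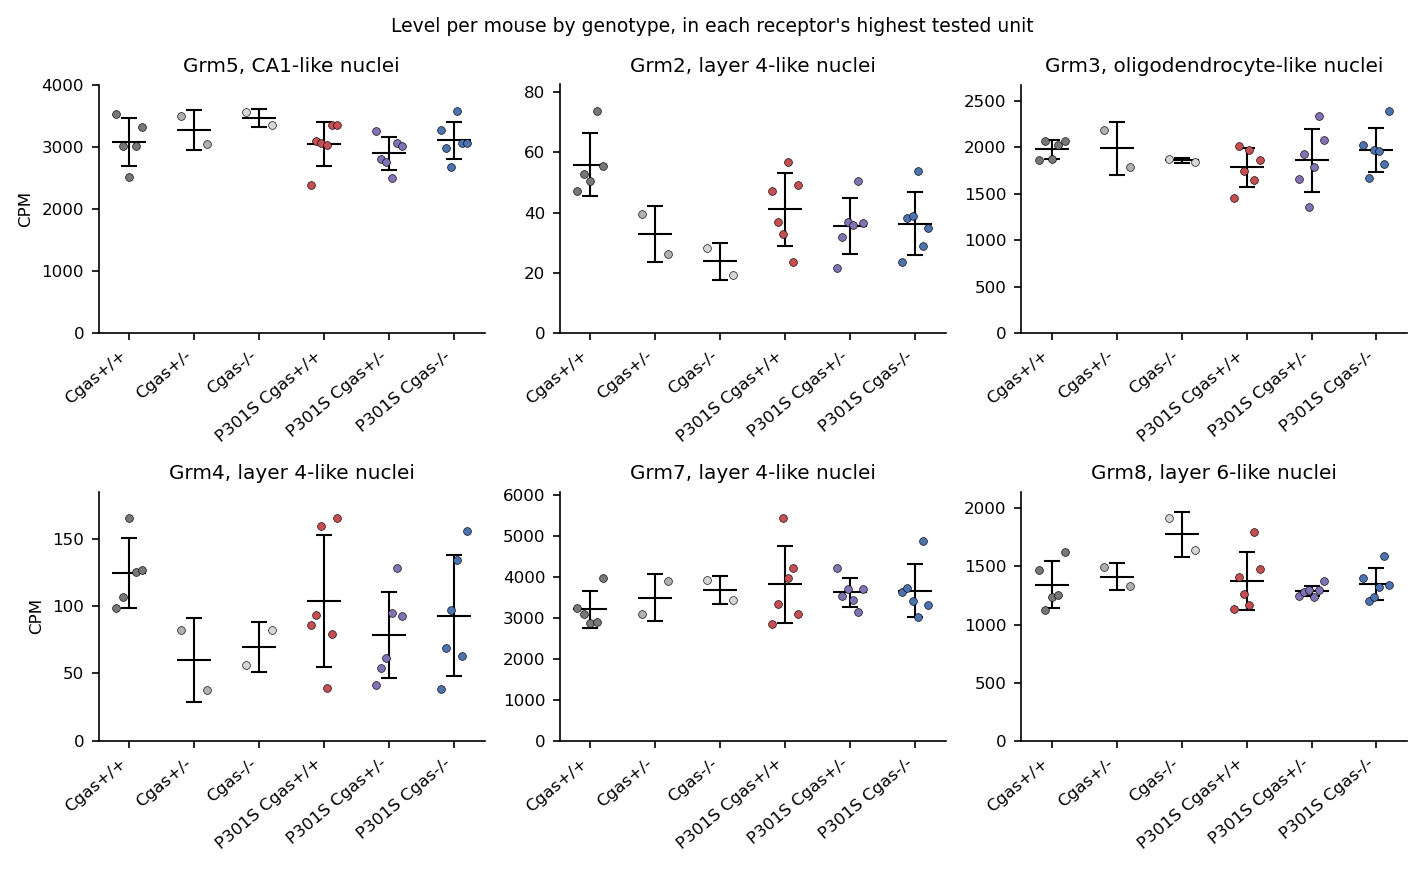
Level per mouse (CPM, axis from 0) by labelled genotype, each receptor in the tested class or subtype where its mean was highest; horizontal bars are means and whiskers SD (n = 5, 2, 2, 6, 6 and 6 mice from left to right). Every tau group overlaps the Cgas+/+ mice. The Grm2 values of the 4 tau-free Cgas+/- and Cgas-/- mice lie below all 5 Cgas+/+ mice, as do their Grm4 values. Those of the Cgas-/- mice rest on 11 Grm2 and 31 Grm4 UMIs. These 4 mice are all male and in libraries of Cell Ranger version 3.0.2. How many of all genes separate the mice in this way was not counted.

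Grm5 in CA1-like nuclei was at 2520.0, 3013, 3019, 3321 and 3532 CPM in the Cgas+/+ mice and at a lowest, median and highest 2390.4, 3079.6 and 3357 in P301S Cgas+/+ mice. The groups overlapped almost wholly, with a log2 difference of -0.01 ± 0.131 (SE; edgeR adjusted p = 1). P301S Cgas-/- mice had 2677, 3063 and 3575 and P301S Cgas+/- mice 2506, 2905 and 3252, and all 4 groups overlapped.

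In Sst-like and Pvalb-like interneurons of tau mice, Grm5 gave fitted differences below 0 for both labelled Cgas genotypes, short of the threshold over all genes. Lamp5-like interneurons gave 0.05 ± 0.103 with loss of both copies and 0.02 ± 0.103 with loss of 1 copy. In both comparisons Sst-like nuclei were the lowest and Lamp5-like nuclei the highest of the 16 tested classes and subtypes. Sst-like nuclei had 1945, 2526 and 3705 CPM (lowest, median, highest) in P301S Cgas+/+ mice, 1511, 1827 and 2253 in P301S Cgas+/- mice and 1461, 1785 and 2321 in P301S Cgas-/- mice. The highest P301S Cgas+/- and P301S Cgas-/- mice were below the P301S Cgas+/+ median, yet the groups overlapped. The log2 difference was -0.54 ± 0.183 for both (edgeR unadjusted p = 0.00711 and adjusted p = 0.324 for P301S Cgas-/-; 0.00686 and 0.384 for P301S Cgas+/-). Tau-free mice had 2098–3248 with Cgas+/+, 2912 and 3014 with Cgas+/- and 3203 and 3222 with Cgas-/-.

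Pvalb-like nuclei gave a log2 difference in Grm5 of -0.48 ± 0.154 in P301S Cgas+/- (edgeR adjusted p = 0.304) and -0.41 ± 0.154 in P301S Cgas-/- mice (adjusted p = 0.451). The values were 2007, 2677 and 3801 CPM in P301S Cgas+/+ mice, 1843, 2233 and 2363 in P301S Cgas+/- and 2011, 2200.1 and 2683 in P301S Cgas-/- mice. Unadjusted p-values under 0.05 were not rare for genes at large in these subtypes, at 7.94% and 7.57% in Sst-like and 7.35% and 6.86% in Pvalb-like nuclei for loss of both copies and of 1 copy. Both subtypes occur in cortex as well as hippocampus, and the origin of these nuclei was not separated. Over the 16 classes and subtypes, some nested in others, the fitted Grm5 difference was below 0 in 13 with loss of both copies and in 15 with loss of 1 copy. Its median over them was -0.23 and -0.22, so values below 0 were not particular to Sst-like and Pvalb-like nuclei.

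**Figure D4:**
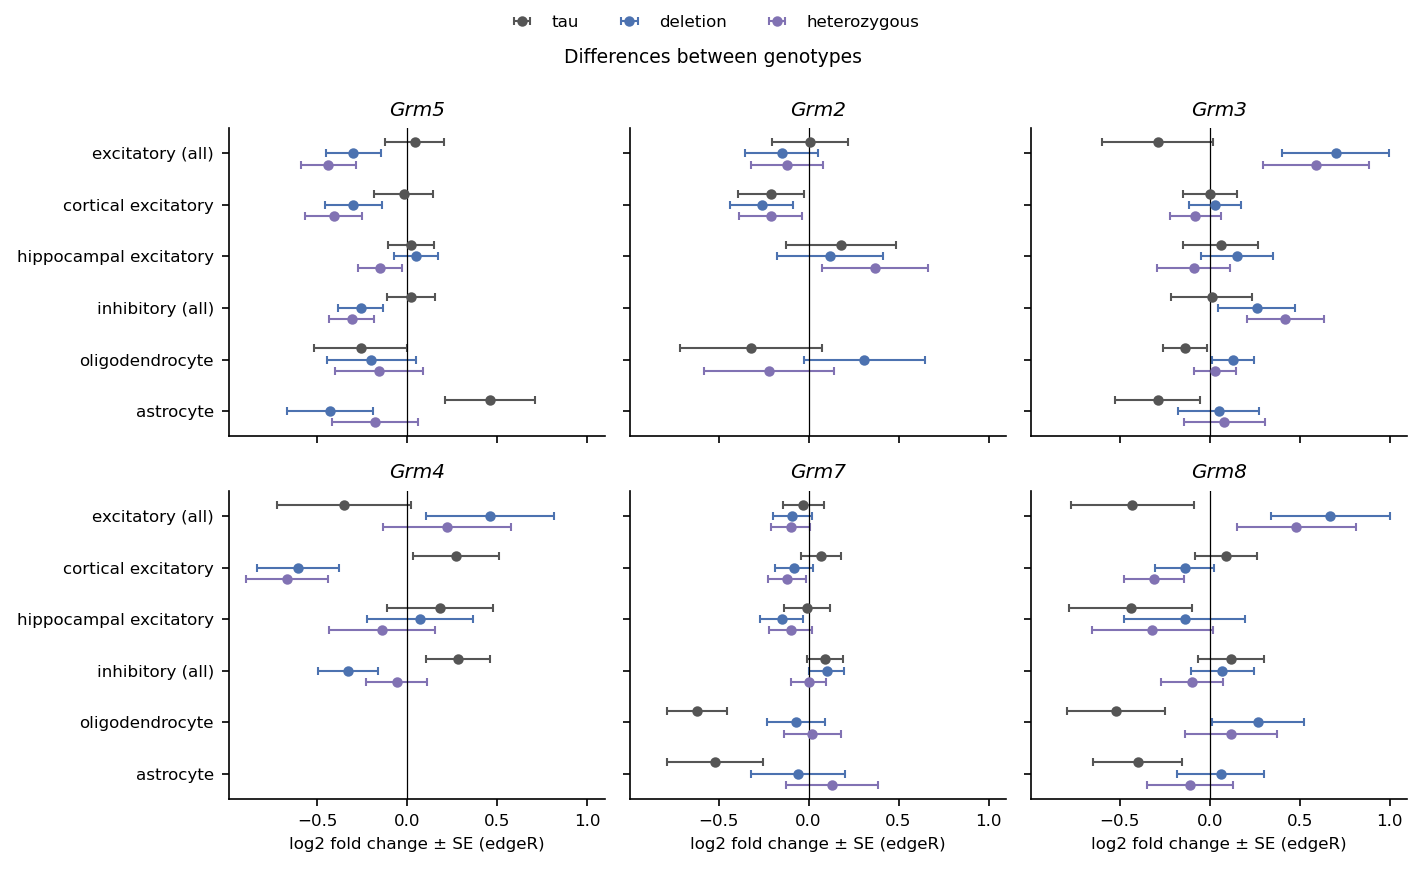
Log2 fold change with its SE (edgeR) of each receptor for tau (P301S Cgas+/+ against Cgas+/+), deletion (P301S Cgas-/- against P301S Cgas+/+) and heterozygous (P301S Cgas+/- against P301S Cgas+/+) comparisons; missing points did not pass the low-count filter. For Grm3 and Grm8 the deletion differences of 0.70 and 0.67 in all excitatory nuclei are 0.03 and -0.14 within cortical and 0.15 and -0.14 within hippocampal excitatory nuclei, and no point passed the threshold over all genes.

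The makeup of the excitatory class differed between mice. Its part in the receptor differences of that class was examined only by taking cortical and hippocampal nuclei separately. Makeup within each of these parts was not tested. Another 13291 excitatory nuclei had no subtype name and were in neither part. They were 3.89% of kept nuclei in P301S Cgas+/+, 6.94% in P301S Cgas+/- and 8.64% in P301S Cgas-/- mice. Cortical-like nuclei were 26.6 ± 23.9% of excitatory nuclei in P301S Cgas+/+ mice (5.54–67.3%), 52.5 ± 17.9% in P301S Cgas+/- (36.9–84.1%) and 50.2 ± 12.1% in P301S Cgas-/- mice (35–65.3%). The difference was 23.5 points with loss of both copies (two-sided exact permutation p = 0.0541, 0.195 after Benjamini-Hochberg adjustment over 15 tests of makeup) and 25.8 points with loss of 1 copy (exact permutation p = 0.0649, adjusted 0.195). Grm3 in all excitatory nuclei followed this share over the 27 mice (Pearson r = 0.94, Spearman rho = 0.89, r = 0.92 without the 2 mice farthest from the median share), as did Grm8 (r = 0.83) and Grm4 (r = 0.65), Grm5 ran against it (r = -0.73), and Grm2 (-0.14) and Grm7 (0.14) showed little relation. Such relations are built in where a receptor's level differs between cortical and hippocampal subtypes, and they are given as a description. Within the libraries of each of the 2 Cell Ranger versions named in the files, r was 0.98 and 0.89 for Grm3 and -0.79 and -0.65 for Grm5.

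**Figure D5:**
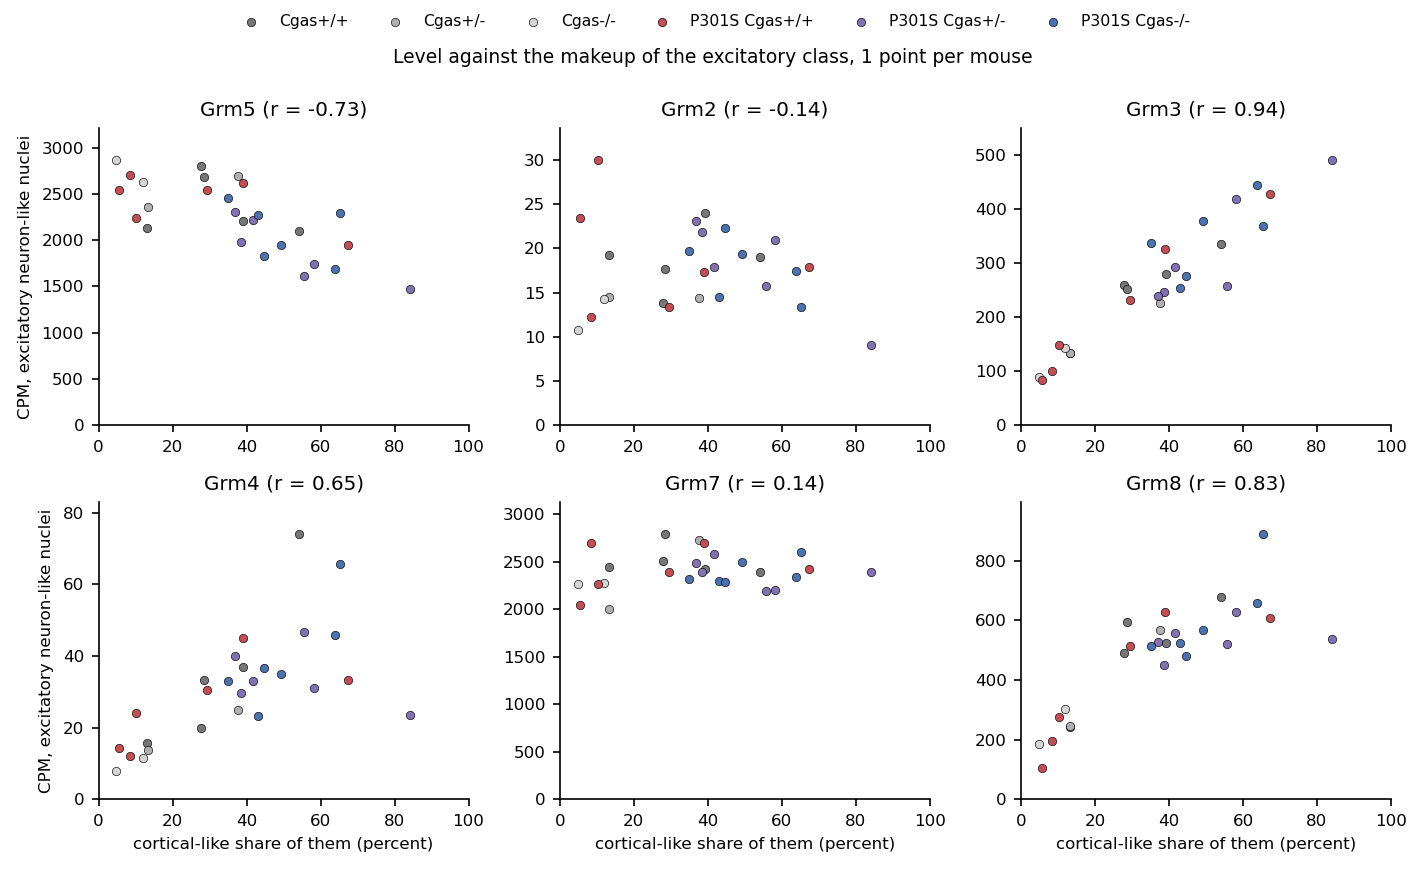
Level of each receptor in all excitatory neuron-like nuclei (CPM) against the percent of those nuclei that were cortical-like, 1 point per mouse coloured by labelled genotype, with Pearson r over 27 mice. Grm3 climbs from 83.7 CPM to 490.4 in the mouse with 84.1%, and Grm5 falls along the same axis.

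Grm3 in all excitatory nuclei was at 83.7, 189 and 428 CPM (lowest, median, highest) in P301S Cgas+/+, 238, 275 and 490.4 in P301S Cgas+/- and 254, 353 and 444 in P301S Cgas-/- mice. The log2 difference with loss of both copies was 0.70 ± 0.297 (edgeR unadjusted p = 0.0285, adjusted p = 0.308). Within cortical excitatory nuclei alone it was 0.03 ± 0.143, and within hippocampal ones 0.15 ± 0.201. Grm8 had 103, 394 and 627 in P301S Cgas+/+ and 482, 547 and 891 in P301S Cgas-/- mice, a log2 difference of 0.67 ± 0.331 (adjusted p = 0.385) that was -0.14 ± 0.165 in cortical and -0.14 ± 0.336 in hippocampal nuclei.

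Grm5 in all excitatory nuclei differed by -0.44 ± 0.153 with loss of 1 copy (edgeR unadjusted p = 0.00844, adjusted p = 0.23), from 1946, 2538 and 2708 CPM in P301S Cgas+/+ to 1475, 1863 and 2302 in P301S Cgas+/- mice. Here the difference was -0.41 ± 0.157 within cortical nuclei (adjusted p = 0.516) and -0.15 ± 0.122 within hippocampal nuclei (adjusted p = 1). The cortical part pools subtypes whose Grm5 means ran from 1713 CPM in layer 4-like to 3038 in layer 5-like nuclei, and their mix was not tested. For Grm4 the difference with loss of both copies was 0.46 ± 0.356 in all excitatory nuclei and 0.07 ± 0.293 in hippocampal ones. In cortical ones the sign was the other, at -0.61 ± 0.228 (edgeR unadjusted p = 0.0145, adjusted p = 0.979). Over the 13 classes and subtypes with a Grm4 test, the fitted difference was below 0 in 11, with a median of -0.12 and its highest value in all excitatory nuclei. The excitatory nuclei without a subtype name were not tested alone. Their Grm4 mean was 61.9 ± 26.1 CPM in P301S Cgas+/+ and 75.7 ± 15.8 in P301S Cgas-/- mice.

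With tau, the lowest unadjusted p of any receptor was that of Grm7 in oligodendrocyte-like nuclei. The 5 Cgas+/+ mice had 1224, 1643, 1729, 1767 and 1818 CPM and the P301S Cgas+/+ mice 831, 1130.0 and 1198 (lowest, median, highest), so that these groups did not overlap. The log2 difference was -0.62 ± 0.166 (edgeR unadjusted p = 0.0011, adjusted p = 0.694), in a class where 6.76% of all genes had an unadjusted p under 0.05. P301S Cgas+/- mice had 824–1509 and P301S Cgas-/- mice 793–1253, both reaching the lowest Cgas+/+ mouse. The tau-free Cgas+/- mice (1187 and 1199) and Cgas-/- mice (1253 and 1354) also lay below 4 of the 5 Cgas+/+ mice. The 3 excitatory markers summed to 103 ± 24.4 CPM in the oligodendrocyte-like nuclei of Cgas+/+ mice and 79.4 ± 28.4 in those of P301S Cgas+/+ mice, and the part of free neuronal RNA in the Grm7 difference was not tested.

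Grm2 in dentate granule-like nuclei, whose mossy fibres carry the receptor, was at 25.5, 26.0, 28.3, 29.3 and 32.1 CPM in Cgas+/+ mice and 23.9, 39.8 and 48.6 in P301S Cgas+/+ mice. The median tau mouse was above every Cgas+/+ mouse, but the lowest was below them all. The log2 difference was 0.46 ± 0.159 (edgeR unadjusted p = 0.00785, adjusted p = 1), where 4.0% of genes had an unadjusted p under 0.05. P301S Cgas+/- mice (31.8, 43.0 and 46.9) and P301S Cgas-/- mice (25.4, 41.0 and 63.5) overlapped the P301S Cgas+/+ mice. In layer 4-like nuclei the tau difference had the other sign, -0.37 ± 0.203 (adjusted p = 1), from 47.2–73.6 in Cgas+/+ mice to 23.6, 42.1 and 56.8 in P301S Cgas+/+ mice.

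In glia with the highest Grm3, the groups overlapped throughout. Oligodendrocyte-like nuclei had 1857, 1876, 2025, 2065 and 2065 CPM in Cgas+/+ mice, 1459, 1801 and 2015 in P301S Cgas+/+, 1357, 1861 and 2338 in P301S Cgas+/- and 1673, 1960.3 and 2387 in P301S Cgas-/- mice. The log2 difference with tau was -0.14 ± 0.122 and with loss of both copies 0.13 ± 0.116 (edgeR adjusted p = 0.855 and 1). Astrocyte-like nuclei had 1219.8–2093 in Cgas+/+ mice and 1009.8, 1345 and 1969 in P301S Cgas+/+ mice, a difference of -0.29 ± 0.236. In oligodendrocyte progenitor-like nuclei with tau, Grm5 differed by 0.28 ± 0.104 (unadjusted p = 0.01, adjusted p = 0.59) and Grm7 by 0.21 ± 0.0994 (unadjusted p = 0.0398, adjusted p = 0.766).

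For the group III receptors in their highest tested subtypes, the values of each tau group overlapped those of the Cgas+/+ mice. Grm7 in layer 4-like nuclei had 2863–3971 CPM in Cgas+/+ and 2852, 3655 and 5421 in P301S Cgas+/+ mice (0.24 ± 0.172). Grm8 in layer 6-like nuclei had 1121–1624 in Cgas+/+ and 1137, 1337 and 1798 in P301S Cgas+/+ mice (0.05 ± 0.14), and loss of both copies gave -0.04 ± 0.133. Grm4 in layer 4-like nuclei had 98.1–165 in Cgas+/+, 39.4, 89.8 and 165 in P301S Cgas+/+ and 38.0, 82.8 and 156 in P301S Cgas-/- mice, and its tau difference of -0.17 ± 0.329 turned to 0.14 at Leiden resolution 2. The lowest unadjusted p for Grm4 was in Pvalb-like nuclei, where it is scarce (275 UMIs in all), with 4.29, 13.5 and 28.8 CPM in P301S Cgas+/+ and 0.955, 6.46 and 11.4 in P301S Cgas-/- mice and a log2 difference of -1.13 ± 0.358 (unadjusted p = 0.00347, edgeR adjusted p = 0.281).

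Partners of the receptors were followed as a list of 41 genes, of which 39 are in the matrices under the listed symbols: scaffolds that hold them at synapses (Homer, Shank, Dlgap1, Elfn), the Gq arm (Gnaq, Plcb, Itpr1), the Gi/o arm (Gnai, Gnao1, adenylyl cyclases, Kcnj channels) and regulators (Rgs, Grk, arrestins). None of 567 tests passed the adjusted threshold in any comparison by edgeR. An unadjusted p under 0.05 was found in 22 (3.88%, 11 higher) with tau, 45 (7.94%, 16 higher) with loss of both copies and 49 (8.64%, 18 higher) with loss of 1 copy, beside 4.51%, 5.45% and 5.73% of all gene tests. The lowest adjusted p by edgeR was that of Adcy8, an adenylyl cyclase, in microglia-like nuclei with tau (-1.25 ± 0.392, adjusted p = 0.138). There 15.7% of all genes had an unadjusted p under 0.05. The 3 excitatory markers summed in microglia to 136 ± 40.9 CPM in Cgas+/+ and 97.1 ± 34.8 in P301S Cgas+/+ mice. The part of free neuronal RNA in the Adcy8 difference was not tested. Next came Rgs8, a regulator of G protein signalling, in Pvalb-like nuclei with loss of both copies (-1.74 ± 0.397, edgeR adjusted p = 0.147). In that last subtype and comparison 9 of 35 tested partners had an unadjusted p under 0.05, all with fitted values below 0, against 7.35% of all genes in either direction. They include Homer2 (-0.54 ± 0.166, edgeR adjusted p = 0.258) and Elfn1 (-1.13 ± 0.445, adjusted p = 0.513), a synaptic adhesion protein that binds Grm7. The interaction of tau with loss of both copies called 1 of 572 partner tests, Rgs8 in Pvalb-like nuclei (edgeR adjusted p = 0.0319). Of all gene tests 0.0296% passed, and 0.230% in Pvalb-like nuclei. The sex-by-tau fits called 2 of 554 partner tests, beside 0.222% of all gene tests. In excitatory nuclei with loss of 1 copy, Plcb4, a phospholipase C that acts after group I receptors, differed by 1.38 ± 0.349 (edgeR adjusted p = 0.177). With loss of both copies the values were 1.24 ± 0.349 for Plcb4 (adjusted p = 0.223) and 0.86 ± 0.257 for Rgs4, which shortens Gq and Gi/o signals (adjusted p = 0.223). The median over the list was -0.078 with loss of both copies and -0.076 with loss of 1 copy, where the median of all genes was -0.004 and -0.007. In that class 13.4% and 12.7% of all genes had an unadjusted p under 0.05, and its cortical share differed between the same groups as given above.

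Among tau-free mice, loss of Cgas by the labels rests on 2 mice a group, all of them male and in libraries of the 3.0.2 version of Cell Ranger, which only 2 Cgas+/+ mice share, both male too. None of 87 receptor tests passed the adjusted threshold (edgeR, all 27 mice), against 0% of all gene tests in either comparison. At an unadjusted p under 0.05 there were 8 (9.20%) in Cgas-/- and 2 (2.30%) in Cgas+/- mice, where all genes gave 3.93% and 2.28%. Grm2 in layer 4-like nuclei was 19.4 and 28.2 CPM in Cgas-/- and 26.4 and 39.5 in Cgas+/- mice, all below the lowest Cgas+/+ mouse at 47.2, which is of the same version. Those values rest on 11 UMIs in Cgas-/- and 167 in Cgas+/- mice, against 663 in Cgas+/+ mice. Grm4 in the same nuclei was 56.5 and 82.4 CPM in Cgas-/- (31 UMIs) and 37.7 and 81.8 in Cgas+/- mice. These too lay below the lowest Cgas+/+ mouse, at 98.1. How many of all genes separate these mice in this way was not counted. Grm3 in all excitatory nuclei was 88.9 and 143 in Cgas-/- mice, whose cortical share was only 8.40%, against 133–335 in Cgas+/+ mice at 32.5 ± 15.1%.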

How the data were processed

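The authors sequenced 27 hippocampal libraries, 1 per mouse, and deposited UMI counts per gene and barcode; the labels name Cell Ranger 3.1.0, Seurat 3.0 and mm10, and the file headers of 12 libraries name Cell Ranger 3.0.2. Per the study's methods, reads were counted on pre-mRNA. From the deposited counts, barcodes with 200–4000 genes and no more than 5% mitochondrial UMIs were retained, and likely doublets (highest scrublet scores in scanpy 1.11.5, 0.8% per 1000 barcodes) removed. Clustering used 2000 variable genes without the receptors and their listed partners, 30 components, 15 neighbours and Leiden resolution 1. Clusters were named from marker lists, by a rule revised after cluster names and leading genes were seen and before genotypes were compared. Total UMIs were 46091490–79484316 per library. Counts summed per mouse and class were tested with edgeR 4.0.16 (TMM, robust quasi-likelihood, sex as covariate, Benjamini-Hochberg over all genes), with DESeq2 1.42.0 as an alternative. Levels are CPM (counts scaled to 1000000 UMIs of the class in that mouse), and gene positions come from GENCODE vM21. Labelled sex matched the sex-linked genes in 27 of 27 libraries.

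The named genes are the 6 receptors, their 3 most similar genes and listed partners, and the lists were chosen with earlier results of these data known. The union of cortical and of hippocampal excitatory subtypes was added after seeing the data. P-values measure the spread between mice. On simulated counts of the deletion comparison, drawn from the kind of model that edgeR fits, 1.79–3.73% of calls were false. Scripts were tested on simulated data. The values of 1 listed partner gene are not reported here.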

Additional observations from a re-analysis of the deposited data

Results flagged for a closer look

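Within a class and genotype, 1 of 24 sets tested held a mouse far from the rest: Grm5 in CA1-like nuclei of P301S Cgas+/+ replicate 1 was 2390.4 CPM, from 153 nuclei, where the other 5 mice had 3026–3357. Chance marks about 1 set in 20.

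The difference with tau in Grm8 of microglia-like nuclei differed between the sexes, by 2.68 ± 0.394 on the log2 scale (SE; edgeR adjusted p = 0.0337, 1 of 334 interaction tests past the threshold). In the same sex-by-tau fits 0.222% of all gene tests passed it, and in microglia-like nuclei 0.0264%. At an unadjusted p under 0.05 there were 21 of 83 receptor tests (25.3%), against 8.19% of all gene tests. Female Cgas+/+ mice had 99.6 and 155 CPM and males 48.8–78.4, while female P301S Cgas+/+ mice had 22.6–37.8 and males 77.9–105. This level is within the range that excitatory markers reach in microglia. The cortical-like share of excitatory nuclei moved the same way, at 39.1–54.1% in female and 13.2–28.5% in male Cgas+/+ mice and 5.54–10.2% in female and 29.4–67.3% in male P301S Cgas+/+ mice, and its part in the result was not tested. Every female library was of Cell Ranger version 3.1.0, and among the libraries of that version the lone male had 78.4 CPM in Cgas+/+ and 105 in P301S Cgas+/+ mice.

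Outside the named classes, cluster 38, with leading genes Fat2 and Gabra6 and 68.2% of its 920 nuclei from P301S Cgas+/+ replicate 2, held 821 ± 268 CPM of Grm4 (SD, n = 7 mice), above the 166 of the highest named subtype. Cluster 52, of 253 nuclei led by Ebf2 and Ebf3, held 3899 ± 463 CPM of Grm8 (n = 6 mice), above 1424 in the highest named subtype.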

How the results depend on the processing

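The absence of called receptors held with every alternative tried except with no low-count filter, where 1 test passed with loss of 1 copy, Grm5 in Pvalb-like nuclei (edgeR adjusted p = 0.0123, against 0.304 with the filter); without it 0.0669% of all gene tests passed in that comparison, and 0.396% in Pvalb-like nuclei. Of 622 partner tests, DESeq2 called 1 with loss of both copies, Rgs8 in Pvalb-like nuclei (DESeq2 adjusted p = 0.0243). It called 3 with loss of 1 copy, the lowest being Plcb4 in excitatory nuclei (DESeq2 adjusted p = 0.0215). Of all gene tests 0.0412% and 0.102% passed. With no low-count filter 3 partner tests passed with tau, 2 with loss of both copies and 3 with loss of 1 copy. There 0.244%, 0.0748% and 0.0669% of all gene tests passed. The lowest with tau was Adcy8 in microglia-like nuclei, where 3.73% of all genes passed. Leaving out each mouse in turn, done in 9 classes and subtypes only, gave 0 receptors in every fit and 0 to 2 partner genes with tau (2 without P301S Cgas+/+ replicate 2). With no upper limit on genes per nucleus the cortical-like share differed by 23.5 points with loss of both copies (exact permutation p = 0.0498) and 26.3 with loss of 1 copy (exact permutation p = 0.0433). Leaving out 1 mouse, the first ranged from 19.3 (without P301S Cgas+/+ replicate 4) to 31.7 (without replicate 1), the second from 19.5 to 34.0 and the tau difference from -14.0 to -0.518.

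Of 591 recomputed differences in each receptor's highest tested subtype, 572 kept their direction and side of the threshold. Some values changed sign: Grm5 in CA1-like nuclei to 0.01 with tau and -0.03 with loss of both copies with no upper gene limit, and to -0.01 with loss of both copies at Leiden resolution 2, and Grm4 in layer 4-like nuclei from -0.17 to 0.14 with tau at that resolution. Leaving out 1 mouse, Grm5 in CA1 ranged from -0.07 to 0.09 with tau and -0.08 to 0.08 with loss of both copies, Grm3 in oligodendrocytes from -0.05 to 0.09 with loss of 1 copy, 0.06 (without P301S Cgas-/- replicate 6) to 0.19 (without P301S Cgas+/+ replicate 2) with loss of both copies and -0.21 (without P301S Cgas+/+ replicate 2) to -0.07 (without replicate 1) with tau, and Grm7 in layer 4 from -0.19 to 0.05 with loss of both copies and 0.12 (without P301S Cgas+/+ replicate 3) to 0.35 (without Cgas+/+ replicate 5) with tau. Grm2 in layer 4 ranged from -0.51 (without P301S Cgas+/+ replicate 6) to -0.24 (without replicate 5) with tau. Grm4 in layer 4 ranged from -0.55 (without P301S Cgas+/+ replicate 6) to 0.00 (without replicate 4) with tau. Grm8 in layer 6 ranged from -0.06 to 0.15 with tau, -0.12 to 0.08 with loss of both copies and -0.18 to 0.02 with loss of 1 copy. The causes were not tested. Leiden resolution 2 left 13 tested classes and subtypes and moved 8 of 180 mean levels by over 1 SD, 5 of them in Tshz2-like nuclei, where Grm4 went from 166 to 57.6 CPM, Grm3 from 776 to 449.8, Grm5 from 2702 to 2154, Grm7 from 2979.5 to 3922 and Grm2 from 11.3 to 20.5. Of 186 mean levels, keeping doublets moved 13 by over 1 SD, no upper gene limit 10 and TMM scaling 7. Grm5 in mossy cell-like nuclei moved under the last 2 settings, Grm7 there with TMM, and Grm7 in Lamp5-like nuclei with no upper gene limit. Grm7 in astrocyte-like nuclei moved with doublets kept. No paired analysis was possible because each mouse belongs to 1 group and the labels give no number that pairs mice; the replicate numbers used here follow sample order and only name the mice. Depth limits Grm2 and Grm4, and a p that missed the threshold does not show equal levels.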
